A study of Mus musculus with 6 samples.

Results

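The 28 genes described here encode enzymes and carriers of the tricarboxylic acid (TCA) cycle, of the reactions that refill it (anaplerosis), and of the malate-aspartate shuttle. They were chosen by name as genes of the pathway, by a rule that uses no measured value but was set with earlier results of these data known, and all 28 were found once each among the 22564 gene rows of an RNA-seq table of mouse inguinal white adipose tissue (iWAT). By the usual location of the protein, 23 members were counted as mitochondrial and 5 (Aco1, Idh1, Mdh1, Got1 and Gpt) as cytosolic. Fh1, whose protein is found in both compartments, was counted as mitochondrial. The cold group held 3 samples from mice kept at 4 °C for 7 days, and the thermoneutral group held 3 samples from mice kept at 30 °C for 7 days. Per the study's methods these were male C57BL/6J mice, 8 weeks old, and the labels name no transgene and no agent. The labels name whole inguinal fat as the tissue and do not say whether each sample came from 1 mouse, so the p-values measure the spread between these samples. The comparison asks which genes of the pathway differ in iWAT between chronic cold and thermoneutrality, and whether mitochondrial enzymes differ in the same way as their cytosolic counterparts.

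In the TCA cycle, acetyl-CoA joins oxaloacetate to form citrate, which is then oxidised step by step back to oxaloacetate in the mitochondrial matrix, and the electrons removed pass as NADH and FADH2 to the respiratory chain. Pyruvate carboxylase, glutamate dehydrogenase and the transaminases feed carbon into the cycle to replace what is withdrawn. The malate-aspartate shuttle carries the electrons of cytosolic NADH into the matrix through paired malate dehydrogenases, paired aspartate transaminases and 2 carrier types of the inner membrane. In brown and beige adipocytes, whose UCP1 lets protons back across the inner membrane to make heat, the cycle supplies the respiratory chain that UCP1 uncouples, whereas white adipocytes are poor in mitochondria.

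The values were scaled counts, that is, fragments per gene divided by 1 factor per sample, and FPKM, fragments relative to transcript length and library size. Differences between groups were taken from scaled counts, and so were ratios of paired genes within a sample. Levels of different genes were otherwise compared in FPKM, unless scaled counts are named. Totals of scaled counts ran from 17434977 to 17588754 in the cold samples and from 19276924 to 19603526 in the thermoneutral samples. Among the 11650 genes that reached 1 FPKM or more in 3 or more samples, 6.24% rose in cold and 35.2% fell by limma at an adjusted p under 0.05, and the median log2 fold change was -0.54. After each sample was centred on its median gene, the median was -0.01, and 10.3% were higher and 5.35% lower. A log2 fold change of a member is therefore to be read against a general shift of this size.

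The tissue label was checked against markers. The 8 adipocyte markers summed to between 2.37% and 3.26% of scaled counts in cold and to between 1.41% and 2.61% at thermoneutrality. These ranges overlapped, and single adipocyte markers differed in direction. Fabp4, the largest of them, had 236300 to 358200 scaled counts in cold and 110700 to 215700 at thermoneutrality, and Pnpla2 was likewise higher in cold without overlap. Adipoq, with 38640 to 44210 in cold and 59730 to 104100 at thermoneutrality, and Lep were lower without overlap. Plin1, Pparg, Cidec and Lipe overlapped between the groups. The 7 thermogenic adipocyte markers, Ucp1 among them, summed to between 0.869% and 1.19% in cold against 0.0168% to 0.0186%. The 10 preadipocyte and fibroblast markers took a smaller share in cold, with 0.208% to 0.231% against 0.462% to 0.964% at thermoneutrality. So did the macrophage markers, with 0.0327% to 0.052% in cold and 0.0818% to 0.129% at thermoneutrality. Among libraries, 2 stood apart. Cold replicate 2 carried the 15 skeletal muscle markers at 1.69% of scaled counts, against at most 0.0104% in the other cold samples and 0.0282% to 0.077% at thermoneutrality. Thermoneutral replicate 1 carried the 5 epithelial markers at 0.147%, against at most 0.000267% in the 5 other samples, and had the lowest adipocyte share, 1.41%. Results that rest on either library are given with and without both. These are bulk samples, in which fewer cells of a type and less RNA per cell cannot be told apart, and the part of these shares in the results below was not tested.

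Sequences upstream of the genes are shown because many members moved together. RefSeq start site windows (GRCm38.p6, 250 bases before to 50 after each start) were found for 26 of the 28 members and searched on both strands for 4 short motifs. The estrogen-related receptor half-site AAGGTCA was present in a window of Ogdh and of Got1, that is in 2 of 26 members, against 5.38% of all 27025 gene symbols. The ETS family motif CCGGAAGT was present in that of Dlst alone, against 4.31% of symbols. The NRF1 motif GCGCNTGCG, nearly the same on both strands, was present in windows of Dld, Idh3g, Ogdh, Sucla2 and Glud1, that is in 5 of 26 members, against 7.12% of symbols. In the lines that follow the match is in capitals, and each line reads in the direction of the gene. Positions are those of the whole printed stretch, match and flanks together. The stretch with the receptor half-site of Ogdh lies at chr11:6292157-6292180 on the plus strand and that of Got1 at chr19:43524832-43524855 on the minus strand. The stretch with the ETS match of Dlst lies at chr12:85110825-85110848 on the plus strand. The stretches with the NRF1 matches of Sucla2 at chr14:73552761-73552786 (plus strand), of Ogdh at chr11:6292535-6292560 (plus strand) and of Idh3g at chrX:73786952-73786977 (minus strand) are shown with them.
Ogdh receptor half-site: cacggcgcTGACCTTggtgcctgc
Got1 receptor half-site: cccagAAGGTCAggaggttgtcct
Dlst ETS: ccggtctcACTTCCGGttgctgcc
Sucla2 NRF1: gcgtctctGCGCCTGCGcggtgccca
Ogdh NRF1: ggtgttgtGCGCATGCGtaactcaac
Idh3g NRF1: gtgactgtGCGCGTGCGtaatgctag
The longer receptor motif TCAAGGTCA, which contains the half-site, was in the window of 0 of the 26 members, against 0.466% of symbols. Among the members with a match, Got1 and Glud1 were not called higher over all samples. The NRF1 stretches of Dld and Glud1 are not printed. A match describes these letters only.

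Most mitochondrial enzymes of the cycle itself were higher in cold, whereas the cytosolic isoenzymes and the transaminases mostly were not. Neither Pcx nor Glud1, the other refilling enzymes among the members, was called. Of the 28 members, 27 passed the filter, and 15 of these rose, 1 fell and the other 11 were not called, a share of 55.6% higher where 6.24% of all tested genes were higher and 35.2% lower. Of the 15 that rose, 14 rose at least 2-fold, where 4.01% of all tested genes did. By compartment, 14 of 22 tested mitochondrial members rose and 0 fell (limma; 0 of them were lower at an unadjusted p under 0.05 either, and Slc25a12 fell without the 2 libraries that stood apart), while of the 5 cytosolic members Mdh1 rose and Aco1 fell. The median log2 fold change was 1.39 over the mitochondrial members and -0.11 over the cytosolic members, against -0.54 over all genes, and on the median-centred scale it was 1.92, 0.42 and -0.01. These medians are over different enzymes, not over matched isoenzymes. In the isoenzyme pairs examined, Mdh2 and Mdh1 both rose, whereas Idh2, Got2 and Gpt2 were not called, and neither were Idh1, Got1 and Gpt. The 3 cold samples lay above all 3 thermoneutral samples for 16 of the 27 members and below them for 2, where 9.09% and 52.1% of all tested genes did so. Without cold replicate 2 and thermoneutral replicate 1, 16 members rose, the same 15 and Got1, and 1 member fell, which was Slc25a12 rather than Aco1, where 6.9% of all tested genes rose and 41.5% fell. All members together took 1.86% to 2.09% of scaled counts in cold and 0.718% to 0.895% at thermoneutrality. The mitochondrial members took 1.64% to 1.83% against 0.545% to 0.724%, and the cytosolic members 0.22% to 0.261% against 0.158% to 0.173%, so neither share overlapped between the groups. The higher cytosolic share is not a rise of these members as a set. Mdh1 had the highest scaled counts of them in every sample, with 22877 to 29117 in cold and 11092 to 12708 at thermoneutrality. Of the other cytosolic members, Idh1, Got1 and Gpt overlapped between the groups and Aco1 was lower in cold.

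**Figure D1:**
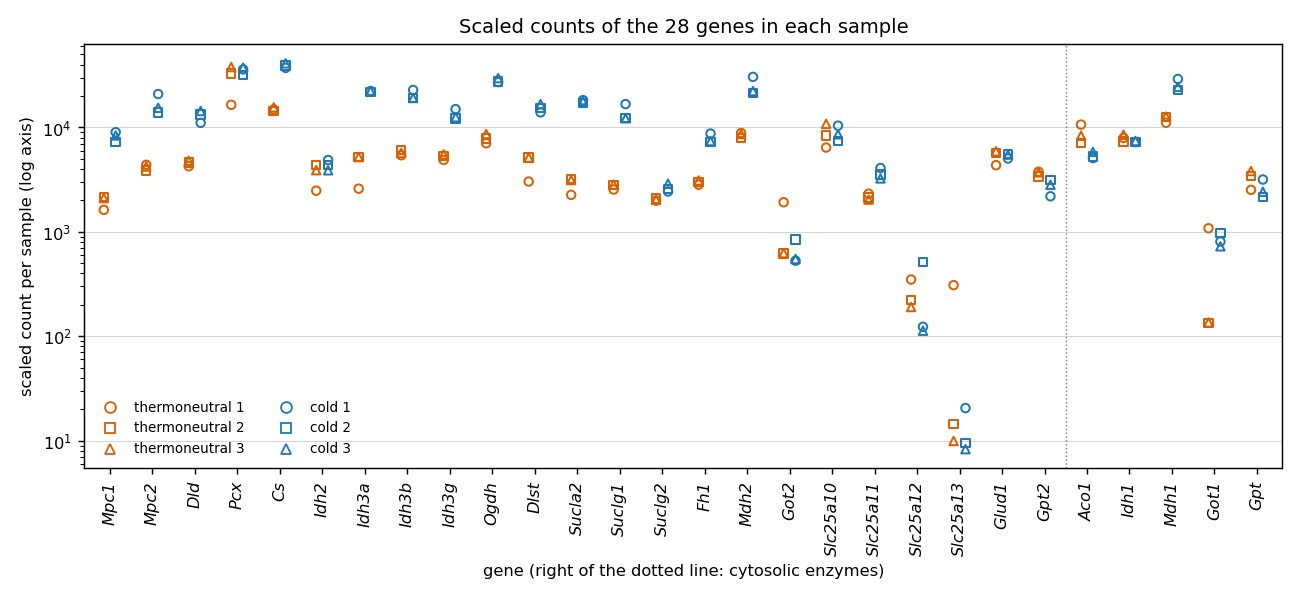
Scaled count (log axis) of each of the 28 genes in each of the 6 samples, with thermoneutral samples in orange and cold samples in blue, and the 5 cytosolic enzymes to the right of the dotted line. For 16 of the 27 genes tested the cold points lie above every thermoneutral point, and the circle of thermoneutral 1 lies far from the other 2 thermoneutral points for Got1, Got2 and Slc25a13.

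**Figure D2:**
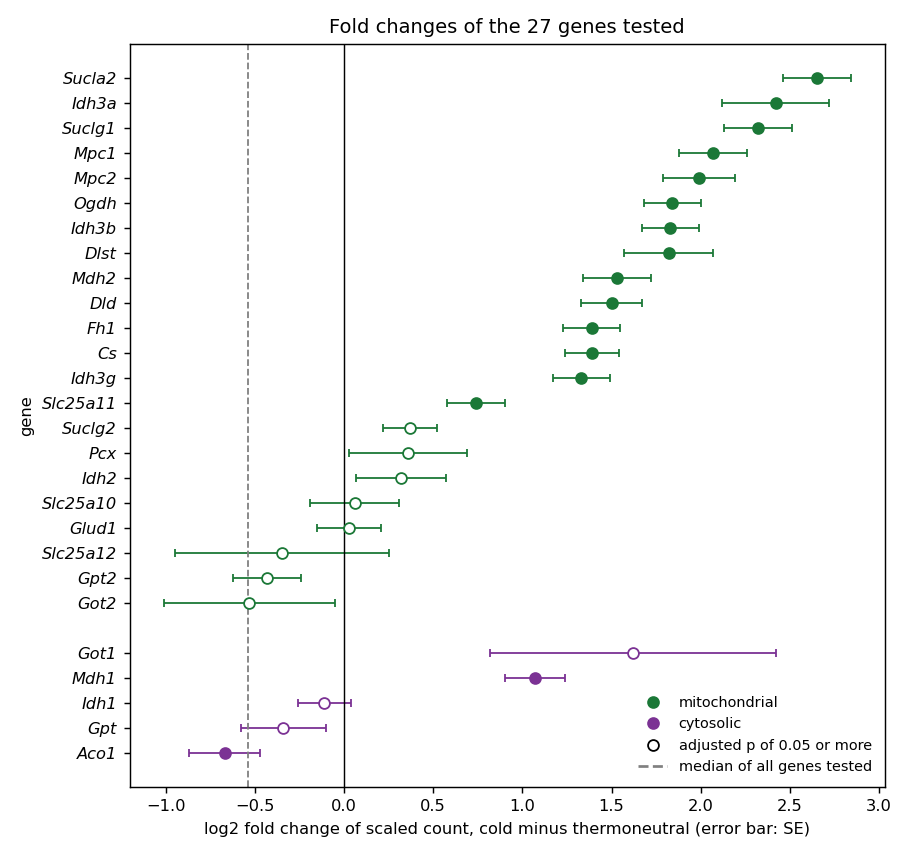
Log2 fold change, cold minus thermoneutral, of the 27 genes tested, with its standard error (horizontal bar), for mitochondrial (green) and cytosolic (purple) enzymes. Filled points had an adjusted p under 0.05, and the dashed line marks the median of all genes, -0.54. Points run from Sucla2 at 2.65 down to Aco1 at -0.67.

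Pyruvate enters the matrix through the mitochondrial pyruvate carrier, a complex of MPC1 and MPC2, and both carrier genes rose. Mpc1 had 9011, 7220 and 8378 scaled counts in cold replicates 1 to 3 and 1626, 2152 and 2107 in thermoneutral replicates 1 to 3. For Mpc2 the cold samples had 20891, 13892 and 15426 and the thermoneutral samples 4385, 3874 and 4225. All cold samples were above all thermoneutral samples for both genes. Mpc1 was 4.19-fold higher in cold (log2 fold change 2.07 ± 0.19 SE, adjusted p = 0.00236) and Mpc2 3.97-fold higher (log2 1.99 ± 0.20 SE, adjusted p = 0.00329). Within a sample, the log2 ratio of Mpc1 to Mpc2 was -1.01 ± 0.18 (SD, n = 3) in cold and -1.09 ± 0.30 (SD, n = 3) at thermoneutrality, and the groups overlapped (exact permutation test, two-sided, p = 0.7). By FPKM the difference of this ratio took the other sign, -0.18 in place of 0.08. The interval deposited for Mpc1 ran 129.7 kb past the annotated gene and over its neighbours, and whether their reads entered its value is not given in the sources used here.

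Once inside, pyruvate can be carboxylated to oxaloacetate by pyruvate carboxylase (Pcx), the main anaplerotic enzyme of adipose tissue, and Pcx did not pass the test. It had 35970, 31955 and 37480 scaled counts in cold and 16481, 32846 and 37905 in thermoneutral replicates 1 to 3. Thermoneutral replicate 1 was the lowest of all samples by far, and the other thermoneutral samples lay within or just above the range of the cold samples. The log2 fold change was 0.36 ± 0.33 SE (adjusted p = 0.387), and 0.06 (adjusted p = 0.796) without the 2 libraries that stood apart. After median centring it was 0.89 (adjusted p = 0.111), and 0.67 (adjusted p = 0.0611) without these libraries as well. Per length, Pcx stood at 184 to 423 FPKM at thermoneutrality, the second highest mean of the members there, and at 357 to 419 FPKM in cold.

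Citrate synthase, which condenses acetyl-CoA with oxaloacetate and whose activity is a common measure of mitochondrial content, rose 2.63-fold (Cs, log2 1.39 ± 0.15 SE, adjusted p = 0.00357), from 14317 to 15571 scaled counts at thermoneutrality to 37195 to 41166 in cold. Aconitase converts citrate to isocitrate. Of the cytosolic aconitase gene Aco1, whose protein becomes an RNA-binding regulator of iron metabolism when it loses its iron-sulphur cluster, the cold samples had 5100, 5255 and 5838 scaled counts and the thermoneutral samples 10660, 7107 and 8328. The groups did not overlap, and Aco1 was the member that fell (1.59-fold lower, log2 -0.67 ± 0.20 SE, adjusted p = 0.0367). That call was held in 1 of the 6 fits that left out a single sample, and it was lost after median centring (log2 -0.14, adjusted p = 0.703) and without both libraries that stood apart (log2 -0.50, adjusted p = 0.0803), so its fall was of about the size of the shift of all genes. With both changes together its log2 fold change was 0.11 (adjusted p = 0.681).

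Isocitrate is oxidised by 3 different enzymes, and their genes differed. The NAD-dependent IDH3 of the matrix, which makes the NADH of the cycle, is built from a catalytic subunit (Idh3a) and partner subunits (Idh3b and Idh3g). NADP-dependent IDH2 of the matrix and IDH1 of the cytosol are homodimers that exchange isocitrate and oxoglutarate with NADPH. All 3 Idh3 genes rose, and neither Idh2 nor Idh1 passed the test.

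For Idh3a the cold samples had 22313, 21748 and 22320 scaled counts and the thermoneutral samples 2593, 5185 and 5203. The cold samples lay close together and all far above the highest thermoneutral sample. Idh3a was 5.37-fold higher (log2 2.42 ± 0.30 SE, adjusted p = 0.00496), and 2.10 on the log2 scale without the 2 libraries that stood apart. Idh3b ranged from 5420 to 6063 at thermoneutrality and from 19163 to 22844 in cold (3.55-fold, adjusted p = 0.00194). Idh3g ranged from 4885 to 5526 at thermoneutrality and from 12242 to 14985 in cold (2.52-fold, adjusted p = 0.00496).

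In contrast, Idh2 had 4876, 4364 and 3890 scaled counts in cold and 2480, 4355 and 3902 at thermoneutrality, where again only thermoneutral replicate 1 lay outside the range of the cold samples (log2 0.32 ± 0.25 SE, adjusted p = 0.31; 0.08 without the 2 libraries that stood apart, adjusted p = 0.751). Idh1 had 7235, 7286 and 7420 in cold and 7941, 7337 and 8522 at thermoneutrality (log2 -0.11 ± 0.15 SE, adjusted p = 0.541; 0.42 after median centring, adjusted p = 0.13). Both genes overlapped between the groups, and after median centring Idh2 was at 0.86 (adjusted p = 0.0627). Per length, the 3 Idh3 genes made 85.5% to 87.1% of the summed FPKM of the 5 isocitrate dehydrogenase genes in cold and 64.6% to 66.0% at thermoneutrality.

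The ratio of Idh3a to Idh2 within a sample was accordingly far apart in the groups. On the log2 scale of scaled counts it was 2.19, 2.32 and 2.52 in the cold samples and 0.06, 0.25 and 0.42 in the thermoneutral samples, a difference of 2.10 or 4.29-fold. With 3 samples against 3 the exact two-sided permutation test cannot go below 0.1, and this ratio reached that value (p = 0.1, 0.171 after Benjamini-Hochberg adjustment over the 12 ratios examined). Leaving out any single sample gave differences of 2.01 to 2.19. Idh3a was also higher relative to its partners. Its log2 ratio to Idh3g was higher in cold by 1.09 and that to Idh3b by 0.60, both without overlap (exact permutation p = 0.1 each), and without thermoneutral replicate 1 and cold replicate 2 the differences were 0.76 and 0.27. By FPKM the ratios of Idh3a to Idh3b overlapped, at 0.478 to 0.627 in cold and 0.259 to 0.492 at thermoneutrality (exact permutation p = 0.2). The mitochondrial to cytosolic ratio of the NADP-dependent pair, Idh2 to Idh1, was -0.75 ± 0.18 (SD, n = 3) in cold and -1.19 ± 0.47 (SD, n = 3) at thermoneutrality, and overlapped (exact permutation p = 0.2). The difference of 0.44 was 0.19 without the 2 libraries that stood apart.

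The oxoglutarate dehydrogenase complex turns oxoglutarate into succinyl-CoA and is made of a decarboxylase (Ogdh), a succinyltransferase (Dlst) and dihydrolipoamide dehydrogenase (Dld), the last shared with the pyruvate dehydrogenase complex. All 3 genes rose. Ogdh went from 7059 to 8660 scaled counts at thermoneutrality to 27169 to 29689 in cold (3.58-fold, adjusted p = 0.00185). Dlst went from 3036 to 5180 to 13947 to 16726 (3.54-fold, adjusted p = 0.00634), and Dld from 4253 to 4802 to 11066 to 14368 (2.82-fold, adjusted p = 0.00429). The log2 ratio of Ogdh to Dlst was 0.87 ± 0.08 (SD, n = 3) in cold and 0.86 ± 0.32 (SD, n = 3) at thermoneutrality, with overlap (exact permutation p = 1.0). Per length, Dld stood at 0.773 to 0.916 times the FPKM of Ogdh in cold and at 1.04 to 1.13 times at thermoneutrality.

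Succinyl-CoA ligase held the pair with the largest difference in ratio among the 12 examined in all 6 samples, though not without thermoneutral replicate 1, where Got2 to Got1 differed by -2.61 and this pair by 2.14. The enzyme pairs the common subunit of Suclg1 with either the ADP-dependent subunit of Sucla2, which yields ATP, or the GDP-dependent subunit of Suclg2, which yields GTP. Sucla2 had 18255, 17179 and 17797 scaled counts in cold and 2262, 3201 and 3135 at thermoneutrality. It was the member with the largest fold change, 6.26-fold higher in cold (log2 2.65 ± 0.19 SE, adjusted p = 0.00117). Suclg1 had 16751, 12254 and 12245 in cold and 2545, 2804 and 2843 at thermoneutrality, 4.98-fold higher (log2 2.32 ± 0.19 SE, adjusted p = 0.00168).

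For Suclg2 the cold samples had 2436, 2566 and 2896 scaled counts and the thermoneutral samples 1989, 2095 and 2026. Every cold sample was above every thermoneutral sample, but the difference was 1.29-fold and did not pass the test (log2 0.37 ± 0.15 SE, adjusted p = 0.0915). After median centring it did (log2 0.90, adjusted p = 0.0132), where Sucla2 stood at 3.18 on the same scale.

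The log2 ratio of Sucla2 to Suclg2 was 2.91, 2.74 and 2.62 in the cold samples and 0.19, 0.61 and 0.63 in the thermoneutral samples. The groups lay 2.28 apart, or 4.86-fold, against within-group SDs of 0.14 and 0.25 (exact permutation p = 0.1, the smallest possible), and the difference was 2.14 to 2.36 when any single sample was left out. Per length, Sucla2 made up 89.0% to 90.2% of the FPKM of both alternative subunits in cold and 59.9% to 67.9% at thermoneutrality. Their summed FPKM was 0.955 to 1.38 times that of the shared subunit gene Suclg1 in cold and 1.25 to 1.45 times at thermoneutrality, ranges that overlapped.

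**Figure D3:**
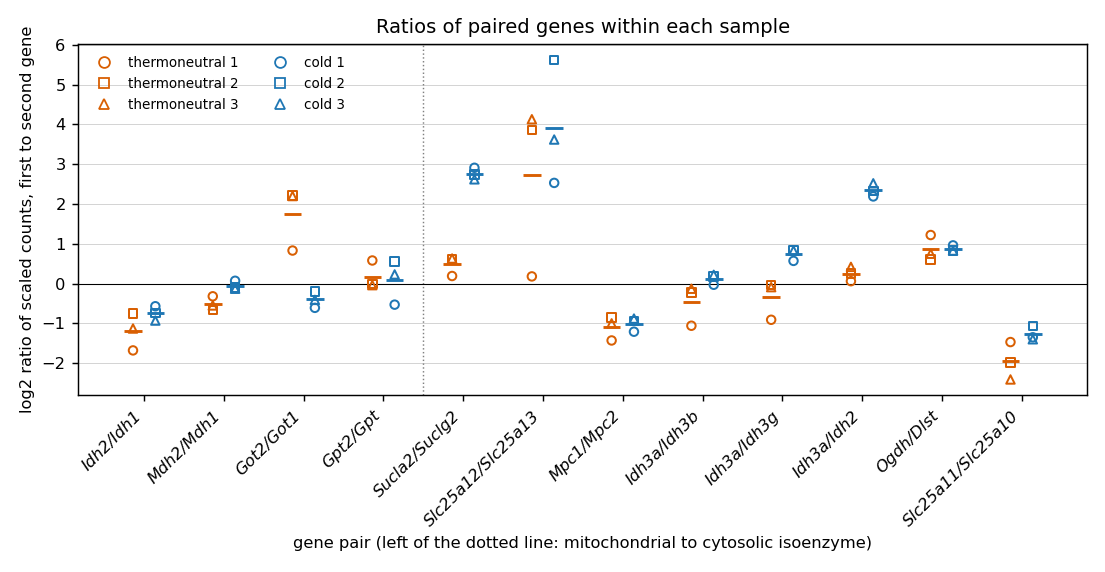
Log2 ratio of scaled counts of the first to the second gene of 12 pairs in each of the 6 samples, with group means as short bars, and the 4 mitochondrial to cytosolic isoenzyme pairs to the left of the dotted line. Cold and thermoneutral points are farthest apart without overlap for Sucla2/Suclg2 (difference 2.28), Got2/Got1 (-2.15) and Idh3a/Idh2 (2.10).

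Fumarate is hydrated to malate by fumarase (Fh1), and malate is oxidised to oxaloacetate by malate dehydrogenase, mitochondrial (Mdh2) in the cycle and cytosolic (Mdh1) in the shuttle. Fh1 rose 2.61-fold, from 2829 to 3106 scaled counts at thermoneutrality to 7257 to 8743 in cold (adjusted p = 0.00431). Mdh2 had 30499, 21297 and 22308 in cold and 8860, 7881 and 8649 at thermoneutrality, 2.88-fold higher (log2 1.53 ± 0.19 SE, adjusted p = 0.00548). Mdh1 had 29117, 22877 and 24461 in cold and 11092, 12549 and 12708 at thermoneutrality, 2.10-fold higher (log2 1.07 ± 0.17 SE, adjusted p = 0.00848). Mdh1 was thus the cytosolic member that rose, with a smaller fold than its mitochondrial counterpart. Mdh2 relative to Mdh1, as a log2 ratio, was 0.07, -0.10 and -0.13 in cold and -0.32, -0.67 and -0.55 at thermoneutrality, a difference of 0.46 or 1.38-fold without overlap (exact permutation p = 0.1, adjusted 0.171). Deposited intervals ran past the annotated gene by 326.6 kb for Mdh1 and by 36.5 kb for Fh1.

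The transaminases of the malate-aspartate shuttle gave other values than its dehydrogenases. The enzymes, cytosolic GOT1 and mitochondrial GOT2, interconvert aspartate and oxoglutarate with oxaloacetate and glutamate. Got1 had 807.7, 975.4 and 728 scaled counts in cold and 1084, 133.6 and 136 at thermoneutrality. Cold samples thus stood well above thermoneutral replicates 2 and 3 but below thermoneutral replicate 1. Over all samples Got1 did not pass the test (log2 1.62 ± 0.80 SE, adjusted p = 0.137). Without thermoneutral replicate 1 it did (log2 2.62, adjusted p = 0.00144), and likewise without cold replicate 2 as well (log2 2.50, adjusted p = 0.00485). Thermoneutral replicate 1 is the library with the epithelial markers, and the part of that tissue in its Got1 value was not tested.

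Got2 had 530.1, 848.9 and 549.4 scaled counts in cold and 1922, 621.3 and 627 at thermoneutrality. Thermoneutral replicate 1 was again far above the other samples of its group, the groups overlapped, and the gene did not pass the test (log2 -0.53 ± 0.48 SE, adjusted p = 0.377). Without the 2 libraries that stood apart the log2 fold change was -0.21 (adjusted p = 0.312), and with median centring as well it was 0.40 (adjusted p = 0.149). The log2 ratio of Got2 to Got1 was -0.61, -0.20 and -0.41 in cold and 0.83, 2.21 and 2.20 at thermoneutrality. All 3 thermoneutral samples, the epithelial one included, had more Got2 than Got1 and all 3 cold samples had less, by scaled counts and by FPKM. The difference of -2.15 in log2 ratio (exact permutation p = 0.1) became -2.71 without the 2 libraries that stood apart. The sign of this difference is opposite to that of Mdh2 to Mdh1, although with 3 samples a group no ratio could pass 0.05.

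The shuttle's carriers exchange malate for oxoglutarate (Slc25a11) and glutamate for aspartate (Slc25a12 and Slc25a13, known as aralar and citrin). Slc25a11 rose 1.67-fold, from 2038 to 2320 scaled counts at thermoneutrality to 3252 to 4090 in cold (adjusted p = 0.0179), a call lost when thermoneutral replicate 2 or 3 was left out (adjusted p = 0.0696 and 0.0746). Slc25a12 had 123.4, 516.7 and 113.2 in cold and 349.9, 223.6 and 190.8 at thermoneutrality. Cold replicate 2, the library with skeletal muscle markers, was the highest of all 6 samples, and the other 2 cold samples were the lowest. Slc25a12 did not pass the test over all samples (log2 -0.35 ± 0.60 SE, adjusted p = 0.649), and was lower in cold without the 2 libraries that stood apart (log2 -0.80, adjusted p = 0.0243), though not after median centring as well (log2 -0.19, adjusted p = 0.512). The interval deposited for Slc25a12 ran 73.9 kb past the annotated gene.

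Slc25a13 was the member that did not pass the filter. It had 20.6, 9.49 and 8.31 scaled counts in cold and 309.1, 14.5 and 9.95 at thermoneutrality, so that thermoneutral replicate 1 alone held more than all other samples together and the gene was near the limit of detection elsewhere. The log2 ratio of Slc25a12 to Slc25a13 ran from 2.53 to 5.62 in cold and from 0.18 to 4.13 at thermoneutrality (exact permutation p = 0.6). Its difference changed sign, from 1.20 to -0.92, without the 2 libraries that stood apart.

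Levels per length set the 2 parts of the shuttle apart within every sample. In FPKM, Mdh1 ranged from 374 to 824, Mdh2 from 297 to 1187 and Slc25a11 from 60.4 to 118 over the 6 samples. Got1 ranged from 4.08 to 32, Got2 from 9.92 to 36.1, Slc25a12 from 2.02 to 8.13 and Slc25a13 from 0.128 to 4.72. Whether reads shared with a Got2 pseudogene, or the wide deposited intervals of Mdh1 and Slc25a12, altered these levels was not tested. The malate dehydrogenases were at least 9.09 times the matching transaminase in each sample, with Mdh1 at 11.7 to 105 times Got1 and Mdh2 at 9.09 to 120 times Got2, and Slc25a11 was 11.4 to 46.5 times Slc25a12. The lowest of these ratios came from thermoneutral replicate 1 in each case. The glycerol phosphate shuttle, the other route for the electrons of cytosolic NADH, was examined beside them, and the choice to set it here was made after its values were seen. Its cytosolic enzyme Gpd1 was 5.11-fold higher in cold (log2 2.35 ± 0.41 SE, adjusted p = 0.0103), at 2713 to 3304 FPKM in cold and 302 to 848 FPKM at thermoneutrality. The mitochondrial enzyme Gpd2 was 6.95-fold higher (log2 2.80 ± 0.40 SE, adjusted p = 0.00688), at 76.2 to 115 FPKM against 7.43 to 21.1 FPKM. Thermoneutral replicate 1 was the lowest sample for both genes. Without the 2 libraries that stood apart the log2 fold change was 1.94 for Gpd1 (limma, adjusted p = 0.00607) and 2.32 for Gpd2 (adjusted p = 0.00686).

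**Figure D4:**
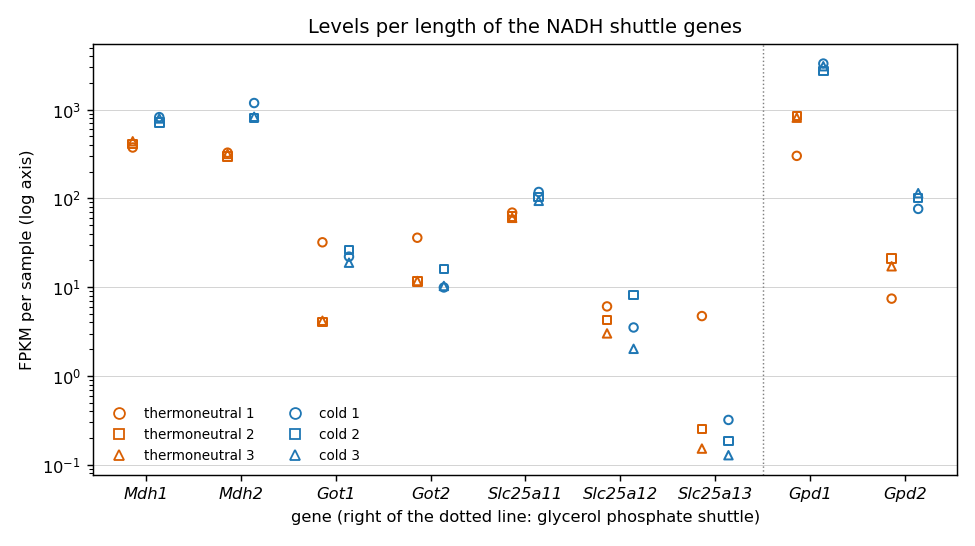
FPKM (log axis) of the malate-aspartate shuttle genes and, to the right of the dotted line, of the glycerol phosphate shuttle genes in each of the 6 samples. The malate dehydrogenases lie at 297 FPKM or more in every sample, whereas the transaminases and the aspartate-glutamate carriers lie at 36.1 FPKM or less, and Got1, Got2 and Slc25a13 were highest in thermoneutral 1.

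The dicarboxylate carrier gene Slc25a10, which exchanges malate or succinate for phosphate and is abundant in white fat, did not pass the test. It had 10401, 7400 and 8602 scaled counts in cold and 6420, 8407 and 10831 at thermoneutrality, ranges that overlapped almost fully (log2 0.06 ± 0.25 SE, adjusted p = 0.85). After median centring its log2 fold change was 0.59 (adjusted p = 0.178). The log2 ratio of Slc25a11 to Slc25a10 was -1.27 ± 0.18 (SD, n = 3) in cold and -1.95 ± 0.47 (SD, n = 3) at thermoneutrality, a difference of 0.68 without overlap (exact permutation p = 0.1).

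None of the 3 remaining enzymes that join the cycle to glutamate and alanine passed the test (limma; 0 of the 3 at an unadjusted p under 0.05). Glutamate dehydrogenase (Glud1), which releases oxoglutarate and ammonia from glutamate, had 5044, 5593 and 5498 scaled counts in cold and 4349, 5703 and 5917 at thermoneutrality (log2 0.03 ± 0.18 SE, adjusted p = 0.91). After median centring its log2 fold change was 0.56 (adjusted p = 0.0739). The alanine transaminases exchange alanine and oxoglutarate for pyruvate and glutamate. The cytosolic gene Gpt had 3174, 2148 and 2419 in cold and 2526, 3428 and 3825 at thermoneutrality (log2 -0.34 ± 0.24 SE, adjusted p = 0.272).

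For the mitochondrial alanine transaminase Gpt2 the cold samples had 2192, 3155 and 2829 scaled counts and the thermoneutral samples 3768, 3396 and 3718. Gpt2 was the second member whose cold samples all lay below the thermoneutral samples, by 1.34-fold (log2 -0.43 ± 0.19 SE, adjusted p = 0.106), and after median centring its log2 fold change was 0.11 (adjusted p = 0.707). The log2 ratio of Gpt2 to Gpt overlapped between the groups (difference -0.09, exact permutation p = 0.9). Of the 4 mitochondrial to cytosolic isoenzyme ratios, then, Mdh2 to Mdh1 was higher and Got2 to Got1 lower in cold without overlap, and those of Idh2 to Idh1 and Gpt2 to Gpt overlapped.

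Neighbouring genes of the pathway, taken from a list of 27 that are not members, moved mostly with the mitochondrial enzymes. Of the 25 that passed the filter, 20 rose, 1 fell and the other 4 were not called, where 6.24% of all tested genes rose and 35.2% fell. Those that rose numbered 14 to 20 when a single sample was left out and 18 without the 2 libraries that stood apart. The 25 had a median log2 fold change of 1.31 (1.85 after median centring). The genes with the smallest adjusted p among those that rose were Me3, a mitochondrial malic enzyme that makes pyruvate and NADPH from malate, Dlat, the acetyltransferase of the pyruvate dehydrogenase complex, and Pdha1, a subunit of the decarboxylase of that complex. Me3 had 323.3, 318.5 and 314.7 scaled counts in cold and 10.2, 26.1 and 15.8 at thermoneutrality, 18.6-fold higher (adjusted p = 0.00138). Its thermoneutral samples lay at 0.304 to 0.877 FPKM, under the filter of 1 FPKM, so Me3 was tested only through its cold samples. The size of its fold rests on these low values, with a log2 fold change of 4.22 by scaled counts and 2.97 by FPKM. Dlat ranged from 3305 to 3430 at thermoneutrality and from 10297 to 12280 in cold (3.28-fold, adjusted p = 0.00219). Pdha1 ranged from 9594 to 10375 and from 27177 to 34019 (3.07-fold, adjusted p = 0.00309).

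The gene that fell was Dhtkd1, which encodes a 2-oxoadipate dehydrogenase of lysine breakdown that is related to Ogdh. It had 90.2, 148.7 and 166.2 scaled counts in cold and 297.9, 476.1 and 462.8 at thermoneutrality, 3.07-fold lower (log2 -1.62 ± 0.30 SE, adjusted p = 0.0121). It remained lower after median centring (log2 -1.09, adjusted p = 0.0413). Ogdh and Dhtkd1, which share the Dlst and Dld partners, therefore differed in opposite directions, but at very different levels. Dhtkd1 was a low gene, at 0.839 to 2.41 FPKM in cold and 3.13 to 5.72 FPKM at thermoneutrality, and it did not pass the stricter filter of 5 FPKM. Ogdh stood at 305 to 340 FPKM in cold and 80.7 to 98.4 FPKM at thermoneutrality.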

How the data were processed

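RNA-seq of iWAT was analysed in 3 cold and 3 thermoneutral samples. Per the study's methods and labels, whole fat RNA was made into TruSeq libraries, which do not mark strand, and sequenced on a NovaSeq. Bowtie 0.12.2 and the builds mm8 and mm10 appear in the processing notes of the submitters without their roles, and the quantifier is not given in the sources used here. The deposited count columns are a signal that the authors had scaled, with values at multiples of 1 step per sample (94.1% to 94.9% of values within 0.02 of a whole multiple). Fragment totals estimated from the steps were 15261977 to 23636675. The deposited FPKM values were normalised by the authors to length and library size. Since the counts are not raw, no count model was used.

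The 11650 of 22564 genes that reached 1 FPKM or more in 3 or more samples were compared with limma 3.58.1 (R 4.3.3) on log2(scaled count + 1), with Benjamini-Hochberg adjustment over all of them and calls at an adjusted p under 0.05. Fold changes are on that log2 scale, which understates the change of low genes. The study's thresholds included a fold of 2, given beside the calls. Ratios within samples were log2 differences of (scaled count + 1), compared by an exact two-sided permutation test of means (scipy 1.17.1, Python 3.11.15). Alternatives were other normalisations, FPKM, pseudocounts of 0.5 and 10, other filters, the trend option, a replicate block and samples left out. Every member is named, with values per sample for isoenzyme pairs, the alternative succinyl-CoA ligase and aspartate-glutamate carrier genes, the 5 largest changes and members that fell or did not pass. Of the other pathway genes, the 3 with the smallest adjusted p in each direction are named. Members and lists were chosen with earlier results of these data known. Some items of the planned lists are not reported here. Annotated gene intervals are from the GENCODE annotation of GRCm38, and positions of the start site stretches are from RefSeq. The deposited interval was over 1 kb wider than the annotated gene for 9 members. Pseudogenes of Got2 and Mpc1 are annotated and are not rows of the table used, so reads shared with them are uncertain.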

Additional observations from a re-analysis of the deposited data

How the results depend on the processing

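Members that rose numbered 14 to 17 under every alternative, against 15, and 14 of the 15 (Slc25a11 excepted) were called whichever single sample was left out. Members that fell numbered 0 in place of 1 after median centring, after quantile normalisation, without the filter, with the replicate block, and after median centring without cold 2 and thermoneutral 1 (an alternative chosen after seeing the data), and 0 to 1 when a single sample was left out. Other pathway genes that rose numbered 14 to 20 when a sample was left out (lowest without cold replicate 3), 16 with the replicate block, 16 without the filter and 18 without cold 2 and thermoneutral 1, against 20. Those that fell numbered 2 by FPKM, with the replicate block and without cold 2 and thermoneutral 1, 0 at an FPKM of at least 5, and 1 to 2 when a sample was left out. Over all genes, 727 rose and 4097 fell. These counts were 1200 and 623 after median centring, 1083 and 704 after quantile normalisation, 1443 and 967 after centring without both libraries, and 373 to 933 and 1061 to 5134 when a sample was left out, lowest without thermoneutral replicate 3 and highest without thermoneutral replicate 1.

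The median of the mitochondrial members was 1.92 after centring and 2.01 with both libraries left out as well. That of the cytosolic members changed sign, from -0.11 to 0.42 and 0.50. Signs of single members changed only where the member was not called, Aco1 excepted (0.11 after centring without both libraries). After centring alone Idh1 was at 0.42, Got2 at 0.00, Slc25a12 at 0.19, Gpt at 0.20 and Gpt2 at 0.11, and without both libraries as well Idh1 was at 0.50, Got2 at 0.40, Gpt at 0.22 and Gpt2 at 0.10. Slc25a12 was at 0.31 after quantile normalisation and Glud1 at -0.03 by FPKM. Without both libraries Slc25a10 was at -0.01 and Glud1 at -0.14. Leaving out a single sample gave -0.01 to 0.59 for Pcx, -0.81 to 0.01 for Got2, -0.13 to 0.25 for Slc25a10, -1.05 to 0.04 for Slc25a12 and -0.11 to 0.11 for Glud1. Of the ratios, Mpc1 to Mpc2 was at -0.18 by FPKM, -0.12 without both libraries and -0.09 to 0.20 with a sample left out. Slc25a12 to Slc25a13 was at -0.92 without both libraries and -0.07 to 1.91 with a sample left out, Gpt2 to Gpt at -0.33 to 0.22 and Ogdh to Dlst at -0.11 to 0.20. The cause of these changes was not tested.

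Replicate numbers are shared between the groups, but the deviations of same-numbered samples correlated at only -0.00428, 0.038 and 0.0659, so the numbers were not taken as pairs. The replicate block gave 568 higher and 3140 lower genes, the same count of 15 members higher, and an adjusted p of 0.0675 for Aco1. A count model planned for recovered whole reads was not run, since 94.1% to 94.9% of the scaled values came out whole within 0.02, too few to take them as recovered reads. With 3 samples a group no ratio could reach p under 0.05, and Slc25a13 and the aspartate-glutamate carrier ratio are limited by low counts.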
